A study of Canis lupus familiaris with 6 samples.

Results

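The genes described here are GOT2, the mitochondrial aspartate aminotransferase, and 8 enzymes or enzyme subunits of the tricarboxylic acid cycle (CS, IDH2, IDH3A, OGDH, DLST, SUCLA2, FH and MDH2), measured in the left ventricle of dogs. They were chosen from gene symbols with results of the comparison of affected with control hearts already known, so their differences between these groups are given as a description, with no test. Every probe set whose only gene symbol in the array annotation was a member was used. This gave 16 probe sets for 8 of the 9 genes, among 29254 probe sets with 1 symbol for 15115 genes. MDH2, the mitochondrial malate dehydrogenase, had no such probe set, since both of its probe sets carry a further symbol, and no value is given for it.

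Total RNA of frozen left ventricle from 6 dogs was hybridised to Affymetrix canine arrays, 1 array per dog. The controls were a male Labrador retriever aged 12 years (control 1), a female St. Bernard aged 10 years (control 2) and a male aged 4 years (control 3) of the breed Greater Swiss Mountain dog. Animals of the affected group, whose tissue is labelled DCM, were Great Danes with cardiomyopathy, a female of 9 years (affected 1) and males of 7 years (affected 2 and affected 3). All affected dogs and no control were Great Danes, so breed and disease cannot be told apart. The deposited log2 values are centred, so that each probe set has its median over the 6 dogs at 0. The middle pair of dogs in each probe set therefore lies equally far from 0. Values of 1 probe set can therefore be compared between dogs, while levels of different genes, and whether a gene or a heart marker was expressed at all, cannot be read from them. In whole tissue, fewer cells of a type and less RNA per cell cannot be told apart.

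The tricarboxylic acid cycle runs in the mitochondrial matrix, where it oxidises the acetyl group of acetyl-CoA to carbon dioxide and passes the electrons to the respiratory chain as NADH and reduced flavin. Cardiac muscle depends on it for most of its ATP, from fatty acids, ketone bodies, lactate and glucose alike. GOT2 is not an enzyme of the cycle itself. It interconverts the cycle intermediate oxaloacetate and glutamate with aspartate and 2-oxoglutarate, and it catalyses the matrix transamination of the malate-aspartate shuttle, which carries the reducing equivalents of cytosolic NADH into the mitochondrion.

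GOT2 was lower in all 3 affected hearts than in any control in both of its probe sets, while all 14 probe sets of the other 7 measured genes overlapped between the groups. In its first probe set GOT2 stood at 0.33, 1.37 and 1.12 in control 1, control 2 and control 3, and at -0.89, -1.12 and -0.33 in affected 1, affected 2 and affected 3. The group means were 0.94 ± 0.54 in controls and -0.78 ± 0.41 in affected hearts (SD, n = 3 each). The lowest control, control 1, lay 0.66 above the highest affected heart, affected 3. The difference of the means was -1.72 on the log2 scale (moderated SE 0.35), a level 3.30-fold lower in affected hearts.

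In the second GOT2 probe set the controls stood at 0.34, 0.40 and 0.59 and the affected hearts at -0.89, -0.34 and -1.12, with the dogs listed as before. The controls here lay close together (0.44 ± 0.13) and the affected hearts were spread more widely (-0.78 ± 0.40, SD, n = 3 each), with a gap of 0.68 between the groups. The difference was -1.23 (SE 0.22), or 2.34-fold lower. Both probe sets thus placed the groups on opposite sides, but they ordered the dogs within each group differently. Control 2 was the highest control in the first and control 3 in the second, and affected 2 was the lowest affected heart in the first and the highest in the second. Pearson's r between them was 0.79 over the 6 arrays and -0.38 for the deviations from the group means.

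**Figure D1:**
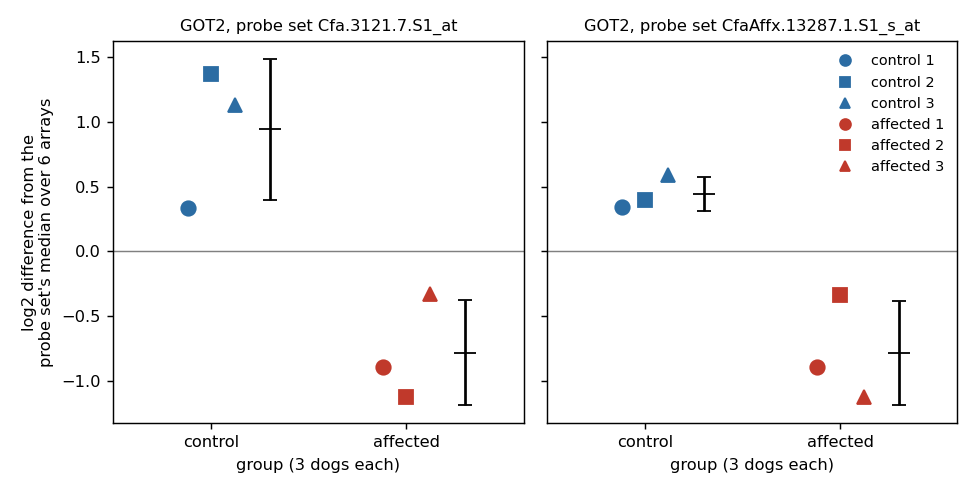
Log2 difference from the probe set's median over 6 arrays (vertical axis) of the 2 GOT2 probe sets in each dog, with the mean and SD of each group (n = 3) beside the points. All control values lie at 0.33 or above and all affected values at -0.33 or below.

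Lack of overlap by itself was common on these arrays. Every affected dog lay below every control in 46.9% of the 42924 probe sets, and above them in 5.37%. A small offset in the same direction was seen in the 17 control probe sets for unexpressed tags, whose median was 0.06, 0.01 and 0.11 on the control arrays and -0.03, -0.03 and -0.01 on the affected arrays. Without the 17956 probe sets that followed these tags at r over 0.9, the share lower without overlap was 12.0%, and it was 18.1% after the median of each array was subtracted. A lack of overlap together with a difference of at least 1 on the log2 scale downwards, as in both GOT2 probe sets, was found in 0.471% of all probe sets. The GOT2 differences were the 81st and 190th lowest of the 42924. The GOT2 probe sets had r of 0.72 and 0.76 with the tags, whose own difference between the groups was -0.08. The part of this offset in the GOT2 differences was not tested.

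Affected 1 and affected 3 stood apart in their spiked control transcripts. The median of the probe sets for dap, lys, phe and thr was 0.58 and 2.38 on these arrays, against -0.19 to -0.01 on the other 4, and that of the bioC probe sets was -1.53 and -1.28, against -0.04 to 0.14. Without these arrays, affected 2 alone differed from the 3 controls by -2.06 in the first GOT2 probe set and by -0.78 in the second. With 1 array left out at a time the differences ran from -2.03 to -1.51 and from -1.45 to -1.06. The mean 3' minus 5' difference of the actin and GAPDH control probe sets was highest on affected 1 (0.20) and affected 3 (0.23). It stood at -0.05, 0.11 and -0.17 in control 1 to control 3, and affected 2 had -0.06. On affected 3 this mean came from the second actin pair, at 1.05, with the other pairs at -0.05, 0.00 and -0.06. On affected 1 the actin pairs stood at 0.36 and 0.42 and the GAPDH pairs at 0.06 and -0.01. Control 1 had a similar value, 0.34, in the first actin pair. In the first GOT2 probe set affected 2 was the lowest array, and in the second affected 1 and affected 3 were.

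Markers of cell types were read beside GOT2, and their part in its difference was not tested. The cardiomyocyte list (11 of 12 genes, 45 probe sets) had a median of 0.01, -0.02 and -0.17 on the control arrays and -0.10, 0.15 and 0.11 on the affected arrays, with 5 probe sets higher and 4 lower without overlap. The fibroblast list (8 of 8 genes, 22 probe sets) had medians of -0.32, -0.11 and -2.08 in controls and 1.23, 0.08 and 0.99 in affected hearts, with 13 probe sets higher and 1 lower in affected hearts without overlap. The macrophage and monocyte list (13 probe sets) was high in control 1 (1.28) and affected 1 (1.95) and between -0.55 and -0.01 in the other dogs. The red blood cell list (2 of 4 genes, 2 probe sets) was at 2.77 in control 2, the highest dog of the first GOT2 probe set, at 0.52 in affected 1 and between -0.13 and 0.05 elsewhere. The adipocyte list was at 1.06 in affected 1 and between -0.12 and 0.13 in the others. Medians of the endothelial list ran from -0.31 in affected 1 to 0.43 in control 2, and those of smooth muscle and pericytes from -0.55 in control 2 to 0.12 in control 1. The T cell and skeletal muscle lists stayed between -0.05 and 0.22 on all arrays. In these lists 3 of 7 and 7 of 10 probe sets were lower without overlap, and 0 were higher. Beside these counts and those of the cardiomyocyte and fibroblast lists, 46.9% of all probe sets were lower and 5.37% higher without overlap. Affected 2, whose fibroblast median lay nearest to the controls, had GOT2 values of -1.12 and -0.34.

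CS, citrate synthase, which joins acetyl-CoA to oxaloacetate at the entry of the cycle, was represented by 1 probe set. It stood at 0.22, 0.16 and -0.02 in the controls and at -0.26, -0.11 and 0.02 in the affected hearts. Control 3 and affected 3 lay at about the same value, so the groups overlapped, and the difference was -0.23 (SE 0.10). Without control 3 or without affected 3 the groups no longer overlapped and the difference was -0.30 in both cases. In these settings 48.7% and 49.8% of all probe sets were lower without overlap.

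IDH2, the NADP-dependent isocitrate dehydrogenase of the matrix, had 2 probe sets that ran alike over the arrays (r = 0.85). In the first it stood at -0.08, 0.47 and -0.13 in the controls and at -0.42, 0.35 and 0.08 in the affected hearts. In the second the values were -0.11, 0.32 and 0.01 in the controls and -0.67, -0.01 and 0.02 in the affected hearts. Control 2 was the highest and affected 1 the lowest dog in both, and the other 4 lay between them in mixed order. The differences were -0.08 (SE 0.26) and -0.29 (SE 0.23). That of the first probe set turned to 0.11 without control 2 and to 0.13 without affected 1.

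IDH3A, the catalytic alpha subunit of the NAD-dependent isocitrate dehydrogenase, differed by 0.02 (SE 0.12), 0.09 (SE 0.15) and 0.05 (SE 0.22) in its 3 probe sets. In the first of them the controls stood at 0.14, 0.05 and -0.28 while the affected hearts lay close together, at 0.00, 0.00 and -0.02. In the second, control 3 was again the lowest, at -0.33, and control 1 the highest, at 0.19, with affected 3 also at 0.19. The third probe set held control 1 and affected 1 apart from the others, at 0.43 in both, with the other 4 between -0.16 and 0.09.

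OGDH and DLST encode the first and second component of the 2-oxoglutarate dehydrogenase complex, which makes succinyl-CoA. OGDH stood at 0.00, -0.06 and 0.00 in the controls and at -0.31, 0.12 and 0.06 in the affected hearts, a difference of -0.02 (SE 0.12). Here affected 1 lay below the others and the other affected hearts above every control. The probe sets of DLST did not run alike (r = 0.22). In the first, DLST stood at 0.61, -0.10 and 0.26 in the controls and at -0.19, 0.04 and -0.04 in the affected hearts, with a difference of -0.32 (SE 0.19). This was the lowest difference among the 14 probe sets, with control 1 and control 3 as the high dogs. Without control 2 it was -0.50 and the groups no longer overlapped, where 52.6% of all probe sets were lower without overlap. In the second DLST probe set the values were 0.08, -0.31 and -0.06 in the controls and 0.13, -0.38 and 0.06 in the affected hearts, a difference of 0.03 (SE 0.18), with control 2 and affected 2 as the low dogs.

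SUCLA2, the ADP-forming beta subunit of succinyl-CoA ligase, differed by -0.20 (SE 0.19) and -0.05 (SE 0.10). In the first probe set it stood at 0.29, -0.21 and 0.02 in the controls and at -0.01, 0.01 and -0.48 in the affected hearts. In the second the values were 0.04, 0.03 and -0.16 in the controls and 0.05, -0.03 and -0.25 in the affected hearts. Affected 3 was the lowest dog in both. The second probe set had a range of 0.29 over the 6 arrays, and it was the 1 member probe set of 16 outside the upper 60% by range.

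FH, fumarase, which hydrates fumarate to malate, had 3 probe sets, and these disagreed. In the first it stood at 0.12, -0.02 and -0.69 in the controls and at -0.13, 0.11 and 0.02 in the affected hearts. In the third they were 0.34, 0.01 and -0.67 in the controls and -0.04, 0.20 and -0.01 in the affected hearts. Control 3 was far below the other 5 dogs in both, and these probe sets had r = 0.97 with each other. Their differences, 0.20 (SE 0.23) and 0.15 (SE 0.27), turned to -0.05 and -0.13 without control 3. The second probe set had control 3 as its highest control, at 0.27, affected 2 as its highest dog, at 0.40, and r of -0.29 and -0.33 with the others.

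**Figure D2:**
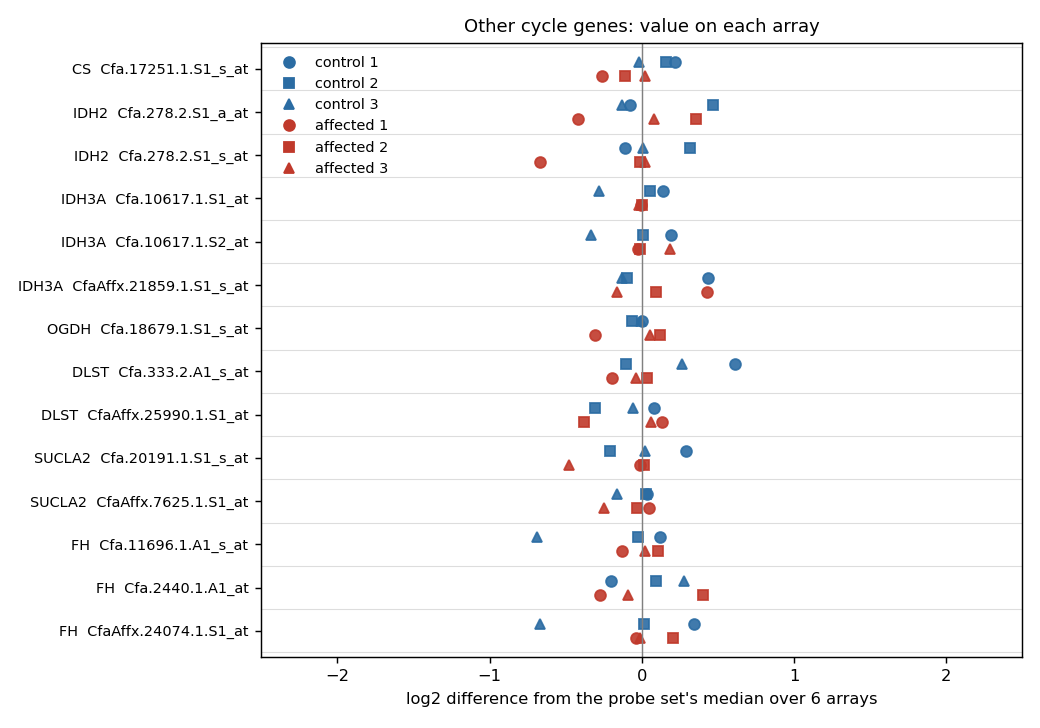
Log2 difference from the probe set's median over 6 arrays (horizontal axis) for the 14 probe sets of CS, IDH2, IDH3A, OGDH, DLST, SUCLA2 and FH, with 1 point per dog, controls above and affected hearts below within each row. The groups overlap in every row, and control 3 lies at the left in 2 rows of FH and 2 of IDH3A.

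Over these 14 probe sets the differences ran from -0.32 to 0.20 with a median of -0.03, 8 below 0 and 6 above it, where the median over all 42924 probe sets was -0.08. The median of the 14 on each array was 0.13, 0.01 and -0.10 in the controls and -0.09, 0.02 and 0.00 in the affected hearts. Control 1 held the highest value in 8 of the 14, and control 2, affected 1 and affected 2 in 2 each. The lowest value was held by affected 1 in 6, control 3 in 4, affected 3 in 3 and affected 2 in 1. Over the 6 arrays, 2 probe sets of IDH3A and 2 of FH ran together (r from 0.86 to 0.96 between the genes), all with control 3 lowest. Probe sets of different genes, GOT2 left out, had a median r of 0.11 over 82 pairs (-0.87 to 0.96). GOT2 paired with these genes had a median r of 0.04 over 28 pairs, from -0.47 to 0.68. All these correlations are over the same 6 arrays and describe them only.

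Likeness to the first GOT2 probe set was ranked by Pearson's r over the 6 arrays. Only genes with a single symbol were ranked, and uncharacterised LOC symbols were left out. The most alike of these genes were C5H1orf159 (0.99), CCDC33 (0.99), MRPL4 (0.99), SLC37A4 (0.99) and VASH1 (0.99). Their ranges over the arrays were 0.13, 0.10, 0.70, 0.16 and 0.09, against 2.49 for GOT2. Pearson's r does not measure the size of the differences. MRPL4, a protein of the large mitochondrial ribosomal subunit, had the widest range of the 5, at 0.09, 0.34 and 0.34 in the controls and -0.35, -0.32 and -0.09 in the affected hearts. In all, 431 probe sets, or 1.00% of the 42924, had r over 0.9 with this GOT2 probe set.

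Other genes around the cycle were taken from 6 lists of 55 genes, of which 48 had 104 probe sets. They were tested in the limma fit over all 42924 probe sets. These lists too were chosen with earlier results of these data known, so the counts past a threshold describe these arrays only. None of the 104 passed the adjusted threshold of 0.05 (smallest limma adjusted p = 0.296), where 0.00233% of all probe sets, that is 1, did. At an unadjusted limma p under 0.05, 11 of the 104 were lower and 4 higher in affected hearts, beside 6.32% lower and 4.53% higher of all probe sets. The median difference over the 104 was -0.04. Of the 104, 14 followed the unexpressed tags at r over 0.9.

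The 10 measured of 11 other enzymes of the cycle had 17 probe sets with differences between -0.25 and 0.15 and a median of -0.05, and 1 was lower at the unadjusted threshold. This was a probe set of SUCLG1, the alpha subunit shared by both succinyl-CoA ligases, at -0.23 (SE 0.09), which followed the tags at r = 0.99, while the other SUCLG1 probe sets differed by -0.07 and 0.02. OGDHL, a relative of OGDH, differed by -0.09 (SE 0.04) and followed the tags as well. SDHD, a membrane anchor of succinate dehydrogenase, stood at 0.04, 0.10 and 0.00 in controls and at -0.10, 0.00 and -0.53 in affected hearts, with affected 3 low, a difference of -0.25 (SE 0.15). IDH3B, a regulatory subunit of the same enzyme as IDH3A, differed by 0.11, -0.17 and 0.04. The 3 probe sets of SDHC, the other anchor, had control 3 lowest, at -0.68, -0.47 and -0.37, with affected 1 close to it in the last, at -0.35. Some, but not all, probe sets of FH and IDH3A also had control 3 lowest.

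The list for the malate-aspartate shuttle, in which GOT2 works, held 5 other genes and did not hold MDH2, for which no value is given. Their 11 probe sets had differences between -0.14 and 0.28 with a median of 0.03. Of these probe sets, 0 passed the adjusted or the unadjusted limma threshold in either direction. GOT1, the cytosolic aspartate aminotransferase and partner of GOT2, stood at 0.00, 0.17 and -0.36 in controls and at 0.00, 0.09 and -0.05 in affected hearts in its first probe set, a difference of 0.07 (SE 0.15). Its other probe set differed by 0.03 (SE 0.16). MDH1, the cytosolic malate dehydrogenase, differed by 0.19 (SE 0.10) and 0.08 (SE 0.11). SLC25A11, the 2-oxoglutarate and malate carrier, differed by 0.27 (SE 0.12) and 0.28 (SE 0.16) in 2 probe sets, with affected 1 and affected 3 at 0.35 to 0.44 and affected 2 at -0.01 and -0.10, and by -0.10 in a probe set that followed the tags at r over 0.99. SLC25A12, an aspartate and glutamate carrier, differed by -0.12, -0.14 and 0.03, and its relative SLC25A13 by 0.01 (SE 0.38), with control 3 at -0.95.

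**Figure D3:**
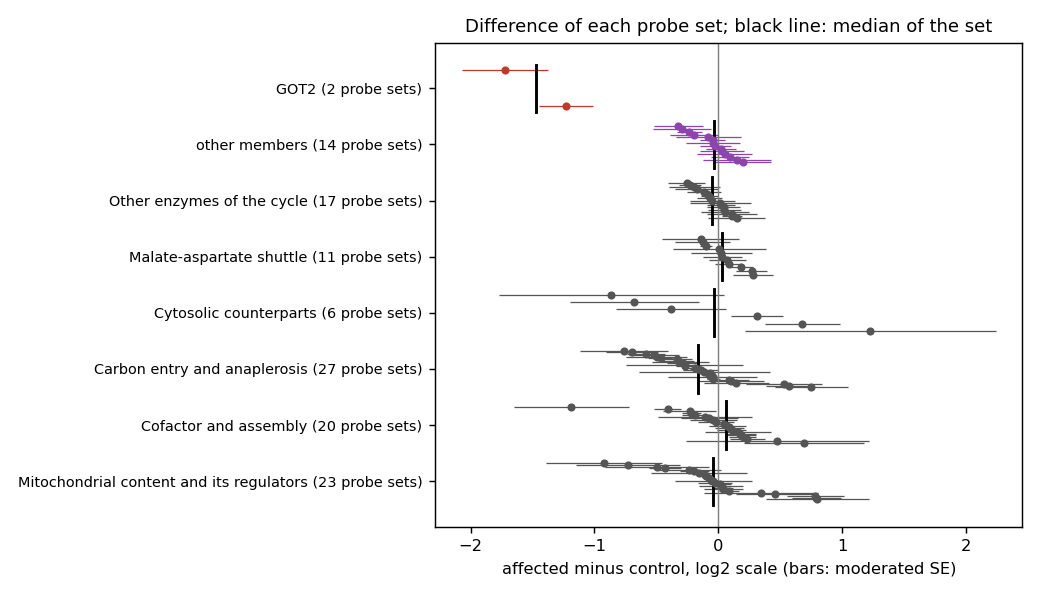
Affected minus control difference on the log2 scale (horizontal axis, bars are the moderated SE) of each probe set of GOT2, of the other members and of the 6 lists of genes around the cycle, with the median of each set as a black line. The GOT2 probe sets lie at -1.72 and -1.23, and the other 14 member probe sets between -0.32 and 0.20.

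Of the lists, that for carbon entry had the lowest median, -0.17 over 27 probe sets of 11 measured genes (14 listed). It also held PCK2 and the malic enzymes ME1, ME2 and ME3, so its median is not one of carbon entry alone. Of the 27 probe sets, 21 lay below 0. At the unadjusted limma threshold 7 were lower and 2 higher, and 14 were lower without overlap, a share close to the 46.9% of all probe sets. Of the 27, 6 followed the unexpressed tags, among them all 3 of PCK2. MPC1 and MPC2 form the mitochondrial pyruvate carrier. MPC1 stood at 0.24, 0.15 and 0.11 in controls and at -0.11, -0.33 and -0.45 in affected hearts in the probe set with its smallest p, a difference of -0.47 (SE 0.10, limma adjusted p = 0.296). Its other probe sets differed by -0.70 (SE 0.21) and -0.29 (SE 0.13), and affected hearts were below controls without overlap in all 3. MPC2 differed by -0.27 (SE 0.08) and -0.32 (SE 0.13), also without overlap in both. The gap was narrow in the MPC1 probe set at -0.29, with control 3 at 0.002 and affected 2 at -0.002. In the MPC2 probe set at -0.32 these dogs stood at 0.009 and -0.009. The median of all probe sets was 0.09 on control 3 and -0.03 on affected 2.

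PDHA1, the alpha subunit of the first component of pyruvate dehydrogenase, differed by -0.58 (SE 0.15), -0.52 (SE 0.20) and -0.14 (SE 0.14), with no overlap in the first and second and overlap in the third. In the first it stood at 0.37, 0.24 and 0.07 in controls and at -0.43, -0.07 and -0.56 in affected hearts. ME3, the NADP-dependent malic enzyme of mitochondria, went the other way, at -0.14, -0.30 and -0.04 in controls and 0.56, 0.04 and 0.63 in affected hearts in one probe set (a difference of 0.57, SE 0.18), with 0.15 (SE 0.26) and overlap in its other probe set. In these non-overlapping probe sets of PDHA1 and ME3, affected 2 lay nearest to the controls, and affected 1 and affected 3, the arrays whose spiked controls stood apart, lay farther away. The part of those arrays in these differences was not tested. None of these genes passed the adjusted threshold.

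**Figure D4:**
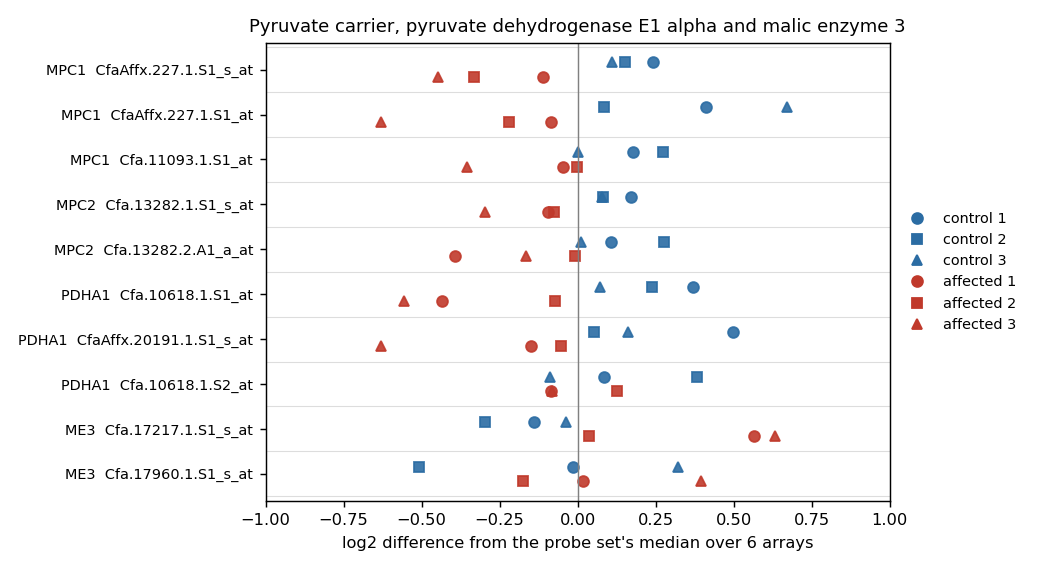
Log2 difference from the probe set's median over 6 arrays (horizontal axis) for all probe sets of MPC1, MPC2, PDHA1 and ME3, with 1 point per dog, controls above and affected hearts below within each row. All 3 rows of MPC1 and both of MPC2 have the affected hearts to the left of the controls, as have 2 of 3 rows of PDHA1. In 1 row of MPC1 and 1 of MPC2, control 3 and affected 2 lie next to each other near 0.

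Among the 3 cytosolic counterparts, ACO1, the cytosolic aconitase and iron regulatory protein, differed by 0.68 (SE 0.30) and 0.31 (SE 0.21). ACLY, which cleaves citrate to cytosolic acetyl-CoA, was high in control 1, at 1.84, 2.66 and 1.20 in its 3 probe sets, and IDH1, the cytosolic isocitrate dehydrogenase, ran from -2.80 in control 3 to 1.57 in affected 1. None of their 6 probe sets passed either limma threshold.

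In the cofactor and assembly list (8 of 10 genes, 20 probe sets, median 0.06), 2 probe sets were lower and 0 higher at the unadjusted limma threshold. Both were of NNT, the proton-pumping transhydrogenase that makes matrix NADPH, at -0.41 (SE 0.11) and -0.22 (SE 0.07). Another NNT probe set differed by -1.19 (SE 0.47), with affected 1 and affected 3 at -1.65 and -1.10 and affected 2 at 0.03, and the last ones by 0.70 and -0.07. SDHAF4 and SDHAF1, assembly factors of succinate dehydrogenase, differed by 0.16 to 0.20 and 0.09 to 0.23, and the iron-sulfur scaffold ISCU by -0.18 to 0.07.

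Mitochondrial content and its regulators (11 of 12 genes, 23 probe sets, median -0.04) had 2 probe sets higher and 1 lower at the unadjusted limma threshold. The 2 higher ones were both of LONP1, the matrix protease. In one, LONP1 stood at -0.36, -0.18 and -0.17 in controls and at 0.60, 0.17 and 0.90 in affected hearts (a difference of 0.79, SE 0.20). In the other it stood at -0.44, -0.21 and -0.08 in controls and at 0.69, 0.08 and 0.85 in affected hearts (0.78, SE 0.23). Affected 2 lay nearest to the controls in both. The part of affected 1 and affected 3, whose spiked controls stood apart, was not tested. The lower one was a GABPA probe set, at -0.43 (SE 0.13), that followed the tags at r = 0.94, where the other GABPA probe sets differed by -0.15, -0.07 and 0.02. PPARGC1A, the coactivator of mitochondrial gene expression, differed by -0.92 (SE 0.46), -0.49 (SE 0.42) and -0.19 (SE 0.12). In the first of these affected 1 and affected 3 stood at -1.01 and -1.29 and affected 2 at 0.21, above control 2 and control 3. NRF1, a transcription factor of respiratory genes, differed by -0.10 in a probe set that followed the tags. VDAC1, the outer membrane channel often used as a measure of mitochondrial content, differed by 0.04 (SE 0.09) and by -0.06 (SE 0.04), the latter in a probe set that followed the tags at r = 0.99.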

How the data were processed

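The labels give 3 control and 3 affected dogs, 1 array each. The authors deposited log2 values, and per the submitters' processing notes GCRMA and MAS5 were used, without saying for what. The scale was inferred from these names and the range of the values. Every probe set had a median of 0 over the 6 arrays (largest absolute median 5e-07). This centring leaves the differences between dogs unchanged. An offset between arrays at background can show as a difference between groups. The fit used 42924 probe sets, without 111 control ones. Of these, 29254 had 1 gene symbol in the array annotation, 439 several and 13231 were not listed. Symbol and Entrez number were the same pair in RefSeq for 7 of the 8 measured members.

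A linear model with group as its term was fitted in limma 3.58.1 (R 4.3.3; eBayes, two-sided; residual degrees of freedom 4, prior 1.13). The p-values were adjusted by Benjamini-Hochberg over all 42924 probe sets with no filter, since a filter on range is not independent of the test. The number of arrays limits the precision. The members and gene lists were chosen with earlier results of these data known. Named beside the members were, per list, probe sets past the adjusted threshold and up to 4 genes with the smallest p, and the 5 symbols most correlated with GOT2. Uncharacterised LOC symbols and probe sets without a single symbol were left out of the choice of these 5. SDHC, SLC25A13 and VDAC1 were added after their values were seen. The fit was tested on simulated data that held no offset between arrays, so that test does not bear on the offset seen here. Alternatives were a range filter, quantile normalization, median centring, sex, age, a replicate block, gene means, a robust prior and left-out arrays.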

Additional observations from a re-analysis of the deposited data

How the results depend on the processing

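Both GOT2 differences stayed below 0 under every alternative run. They were -2.06 and -1.43 after quantile normalization and -1.65 and -1.15 after median centring, and the second was -0.78 without affected 1 and affected 3. Of 209 values of the other members under the alternatives, 2 moved by more than the SD within groups, both without affected 1 and affected 3, and the largest in size was -0.50. Among the 14 probe sets of the other members, 0 to 2 were lower without overlap when 1 array was left out, where 48.1% to 52.6% of all probe sets were, and 2 without affected 1 and affected 3, against 56.8% of all. OGDH was higher without overlap without affected 1 (7.74% of all probe sets), and OGDH and FH were without affected 1 and affected 3 (15.2%).

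No companion probe set passed the adjusted limma threshold under any alternative run. Of the 104, 11 were lower at an unadjusted p under 0.05, against 6.32% of all probe sets tested. This became 4 of 84 with the range filter (2.99% of all), 5 after median centring (2.56%), 10 with age (22.7%) and 3 of 48 genes with gene means (5.64%). Without control 1, control 2 or control 3 it was 3 (2% of all), 14 (28.5%) and 6 (4.11%). Without affected 1, affected 2 or affected 3 it was 5 (1.53%), 14 (2.86%) and 7 (1.73%). The 4 higher ones, against 4.53% of all, became 8 after quantile normalization (6.0%), 7 with age (6.80%) and 2 of 48 genes with gene means (4.88%). Without control 1, control 2 or control 3 they were 1 (4.12% of all), 2 (7.22%) and 3 (2.56%). Without affected 1, affected 2 or affected 3 they were 3 (3.32%), 6 (6.21%) and 2 (3.1%). The cause was not tested. The share of all probe sets lower without overlap was 46.9%, 19.7% after quantile normalization and 12.0% without those following the tags, the last chosen after seeing the data. Deviations of same-numbered dogs correlated at 0.27, 0.15 and 0.02, and those of differently numbered dogs at -0.23 to 0.04. These values do not decide whether the numbers pair the dogs, and the main fit did not take them to. With a replicate block the counts were 11 lower and 5 higher.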
